A study of Homo sapiens with 6 samples.

Results

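The 10 genes described here encode small nuclear RNAs of the spliceosome and the U8 small nucleolar RNA. They are RNU5A-1, RNU5B-1, RNU5D-1, RNU5E-1 and RNU5F-1 (U5), RNU4-1 (U4), RNU11, RNU12 and RNU4ATAC (U11, U12 and U4atac) and SNORD118 (U8). They were chosen from the ranks of the SMAD2 peak scores in these same libraries, where several of them stood among the strongest peaks. Their ranks are therefore a description and carry no test. A gene was assigned every peak summit within 1 kb of its hg19 position, and 9 of the 10 genes had such a summit in all 4 libraries. Their 9 sites belong to the 5829 sites that were present in every library, out of 36648 sites in all.

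SMAD2 carries the signal of activin and TGF-β receptors into the nucleus, where it acts on genes together with SMAD4 and other factors. Binding was measured by chromatin immunoprecipitation with an anti-SMAD2 antibody and sequencing (ChIP-seq) in Hs578T, a triple-negative human breast cancer line. Activin A (50 ng/ml, 1.5 h) was given to the cells of every library and of the inputs used for peak calling. The libraries form 2 groups of 2: activin A alone, and activin A with 1 µM palbociclib for 24 h. Palbociclib blocks the cell cycle kinases CDK4 and CDK6. No library without activin and none with a control antibody was analysed here, so signal that precedes activin, or that any antibody would bring down, cannot be told apart from activin-driven SMAD2 binding. The 2 libraries of a treatment were called against 1 input, so treatment and input cannot be told apart either.

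Spliceosomes remove introns from pre-mRNA. U4 and U5 work in the major spliceosome; U11, U12 and U4atac belong to the minor spliceosome, which handles a rare class of introns and shares U5 with the major one. U8 is needed for the maturation of the large ribosomal subunit RNAs. All these RNAs are made from short, intronless genes that RNA polymerase II reads at high rates. Their promoters differ from those of protein-coding genes: a proximal sequence element bound by the SNAPc complex sits just before the start, and a distal element further upstream binds activators such as OCT1 and ZNF143.

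The score of a peak is read here, from its lowest values, as the peak caller's −log10 significance. Such a score grows with read depth, so it was used only as a rank within its own list (rank 1 is the highest score). The activin lists held 25553 (replicate 1) and 7241 (replicate 2) summits, the palbociclib lists 27290 and 19226. Read depth is unknown. Activin replicate 2 stands apart by its short list, and its highest score was 168.5, against 385.23 to 778.35 in the others. Nothing in the labels says that the replicates were grown apart, and the spread between replicates may be technical.

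The members crowded the head of every list. Of the 10 best-scored summits, 6 lay at these genes in each activin library and 5 in each palbociclib library. The median rank of the members was 7 in activin replicate 1 and 8.5 in activin replicate 2. It was 10 in palbociclib replicate 1 and 8 in palbociclib replicate 2. RNU5B-1, RNU5F-1 and RNU4ATAC were among the 10 best summits of all 4 lists, and 8 members were among the best 100 of all 4. Presence in every library was found for 15.9% of all sites, which is given for scale only because presence and rank chose the members.

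**Figure D1:**
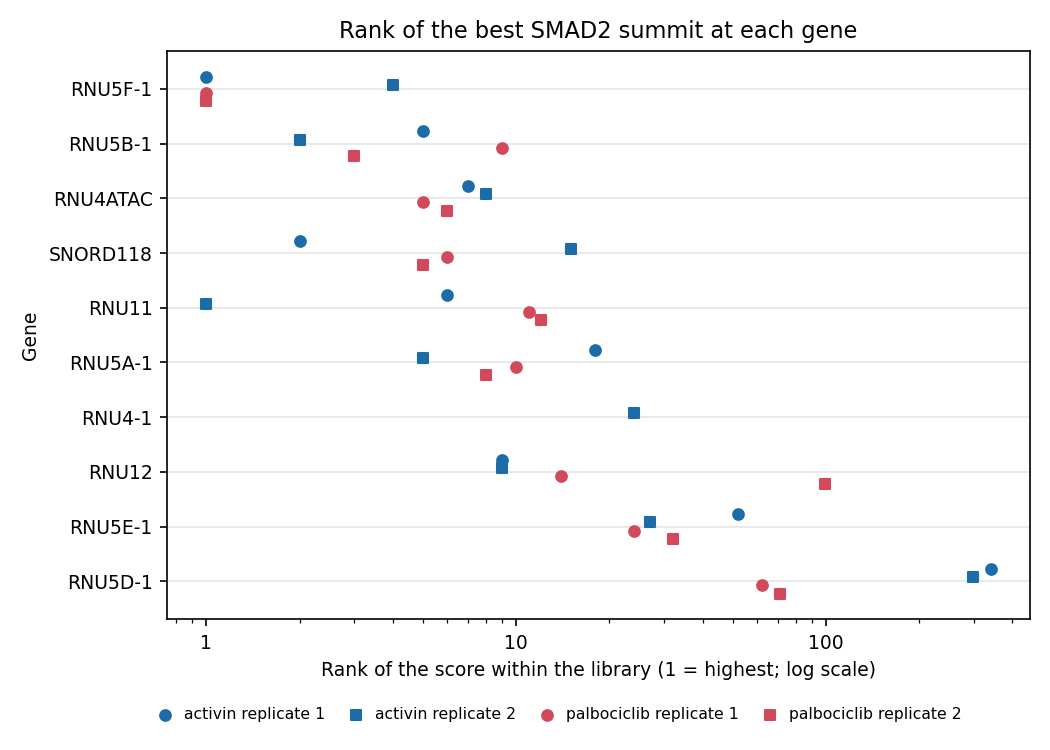
Rank of the best SMAD2 summit within 1 kb of each gene, by library; the x axis is the rank of its score within that library on a log scale (1 is the highest score), and blue and red mark activin and palbociclib libraries. RNU5F-1 holds rank 1 in 3 libraries, RNU4-1 has a point in activin replicate 2 alone, and RNU5D-1 lies farthest to the right, at 299 and 340 in the activin libraries and 62 and 71 in the palbociclib libraries.

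U5 is the small nuclear RNA that holds the exon ends at the core of the spliceosome, and its 5 genes spanned the whole range of the members. RNU5F-1 on chromosome 1 had the highest score of 3 lists. Its scores were 385.23 (rank 1) and 138.39 (rank 4) in the activin libraries, replicate 1 first, and 778.35 and 407.06 (rank 1 in both) in the palbociclib libraries. No other member held the first rank in more than 1 library. RNU5F-1 overlaps the protein-coding gene ARMH1 and the non-coding LOC105378690 in the RefSeq table.

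RNU5B-1 and RNU5A-1 neighbour each other on chromosome 15, at hg19 positions 8741 bp apart. RNU5B-1 ranked 5 and 2 in the activin libraries and 9 and 3 in the palbociclib libraries, with scores of 349.87, 167.59, 594.5 and 360.6. RNU5A-1 ranked 18 and 5 after activin and 10 and 8 after palbociclib, with scores of 294.63, 128.24, 591.27 and 327.85. RNU5B-1 stood above RNU5A-1 in each of the 4 libraries. Each gene had a summit of its own in every list, so the pair was resolved.

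RNU5E-1 and RNU5D-1 were the U5 genes with the weakest signal, although still near the head of the lists. RNU5E-1 on chromosome 1 ranked 52 and 27 in the activin libraries and 24 and 32 in the palbociclib libraries. RNU5D-1 lies 9270 bp from RNU5F-1 on the same chromosome and ranked 340 and 299 after activin and 62 and 71 after palbociclib. Its scores were 155.28 and 30.72 after activin and 411.58 and 208.92 after palbociclib. The neighbours RNU5F-1 and RNU5D-1 thus held the best and the worst mean rank of the 9 genes present throughout; in single libraries RNU11 and RNU5B-1 stood ahead of RNU5F-1 (activin replicate 2) and RNU12 stood behind RNU5D-1 (palbociclib replicate 2). The U5 genes resemble each other in sequence and have pseudogene copies (RNU5E-4P lies within 5 kb of RNU5E-1 in the RefSeq table). The sources used here do not say how reads that match several copies were placed, which makes the division of signal between these genes uncertain.

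U4 pairs with U6 before the spliceosome is activated. RNU4-1 on chromosome 12 was the one member without a summit within 1 kb in most libraries. Activin replicate 2 alone had one, 80 bp below the gene position, with a score of 87.07 (rank 24). All 4 libraries had a strong summit a little farther away, 1548 to 1620 bp below the position, at 120729416 to 120729488 (hg19). That summit ranked 29 and 19 in the activin libraries and 59 and 48 in the palbociclib libraries, and in activin replicate 2 it stood beside the one at RNU4-1. In the RefSeq table RNU4-2, the other U4 gene, lies within 5 kb of RNU4-1, and the protein-coding gene SIRT4 overlaps RNU4-1. Which of them the summit belongs to was not analysed here, since no hg19 annotation was used. The U4 genes are near copies of each other, so reads shared between them are uncertain too.

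The 3 genes of the minor spliceosome all had strong sites. RNU11, whose RNA recognises the start of a minor intron, had scores of 348.05 and 168.5 after activin and 586.77 and 312.25 after palbociclib. These gave ranks 6 and 1 in the activin libraries and 11 and 12 in the palbociclib libraries. RNU11 was the top summit of activin replicate 2, the short list.

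RNU4ATAC is the minor counterpart of U4 and a gene mutated in an inherited growth disorder. Its ranks had the smallest SD over the 4 libraries, 1.29, close to the 1.5 of RNU5F-1. The ranks of RNU4ATAC were 7 and 8 after activin and 5 and 6 after palbociclib, with scores of 338.6, 118.3, 658.06 and 354.86. The gene lies within CLASP1 in the RefSeq table, and no other summit was found within 10 kb of it in any list.

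RNU12, which pairs with the branch site of minor introns, ranked 9 in both activin libraries, 14 in palbociclib replicate 1 and 99 in palbociclib replicate 2. Its scores were 336.8, 115.02, 575.94 and 194.06. The low rank came from palbociclib replicate 2 alone. Its mean rank was 32.8 ± 44.2 (SD over 4 libraries), against 6.5 ± 1.29 for RNU4ATAC and 7.5 ± 5.07 for RNU11. The protein-coding genes POLDIP3 and CYB5R3 and the non-coding LOC124905127 lie within 5 kb of RNU12 in the RefSeq table.

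SNORD118, the U8 gene, is read in the manner of a small nuclear RNA gene and overlaps TMEM107 in the RefSeq table. It ranked 2 and 15 after activin and 6 and 5 after palbociclib, with scores of 372.75, 105.95, 636.0 and 358.41. The activin replicates lay on both sides of the palbociclib replicates. Its order between the treatments thus depended on the replicate.

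Ordered by mean rank over the 4 lists, the genes ran RNU5F-1 (1.75 ± 1.5, SD over 4 libraries), RNU5B-1, RNU4ATAC, SNORD118, RNU11, RNU5A-1, RNU12, RNU5E-1 and RNU5D-1 (193 ± 147). These SDs and the ranges below pool both treatments and lists of different length. For RNU5D-1 the mean rank was 319.5 ± 29.0 after activin and 66.5 ± 6.36 after palbociclib (SD). The rank ranges of neighbours in this order overlapped from RNU5F-1 to RNU5A-1, so no 2 neighbours among the first 6 were set apart by range. RNU5F-1 (1 to 4) did not overlap RNU4ATAC (5 to 8). RNU5A-1 and RNU12 overlapped (5 to 18 against 9 to 99), and so did RNU12 and RNU5E-1 (24 to 52). RNU5D-1 (62 to 340) did not overlap RNU5E-1. Among the sites common to all libraries, 6 of the 10 with the best mean rank were at these genes. The 1 site of another location ahead of RNU4ATAC was on chromosome 1 from 147806682 to 147806738 (mean rank 6.25), and 14 of the 20 best sites lay elsewhere.

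The lists differ in length, so the treatments were compared on ranks among the 5829 common sites, where every library ranks the same set. At 2 of the 9 genes (RNU5D-1 and RNU4ATAC) the palbociclib ranks were both better than either activin rank, and at 2 (RNU11 and RNU12) they were both worse. Over all common sites these shares were 26.2% better and 28.2% worse; among the 100 common sites with the best mean rank they were 31% and 28%. The members' counts are close to this background. The ranks of the other 5 genes overlapped between the treatments. No test was made, because the ranks chose the members; 2 libraries against 2 could not give an exact permutation p below 0.333 in any case.

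RNU5D-1 moved the farthest of the genes whose ranks rose. Its common-site ranks were 331.5 and 288.5 after activin and 60 and 70 after palbociclib. The mean went from 310 ± 30.4 to 65 ± 7.07 (SD, n = 2 each), that is, from the best 5.32% to the best 1.12% of the common sites. The log2 ratio of the palbociclib rank to the activin rank was -2.47 in replicate 1 and -2.04 in replicate 2, so both same-numbered pairs gave a like size. RNU5F-1, the neighbour of RNU5D-1, was already at rank 1 in activin replicate 1 and had no room to rise there. RNU4ATAC rose by a few places only, from 7 and 8 to 5 and 6.

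Of the genes ranked lower with palbociclib, RNU11 went from 6 and 1 to 11 and 12, a mean of 3.5 ± 3.54 against 11.5 ± 0.71 (SD, n = 2 each). RNU12 went from 9 and 9 to 14 and 97, a mean of 9 ± 0 against 55.5 ± 58.7. The spread of RNU12 between the palbociclib replicates exceeded the difference between the treatments. Counts depended on the libraries used: without activin replicate 1, 4 genes ranked higher and 4 lower with palbociclib, against 39.7% and 43.9% of the sites common to the remaining 3 libraries. Without activin replicate 2, 4 ranked higher and 3 lower, against 36.9% and 38.1% of such sites. A site needs to clear fewer libraries in those cases, and the shares of all sites rose as the members' counts did. The common site beyond 1 kb from RNU4-1 also ranked lower with palbociclib, at 57 and 48 against 29 and 19.

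**Figure D2:**
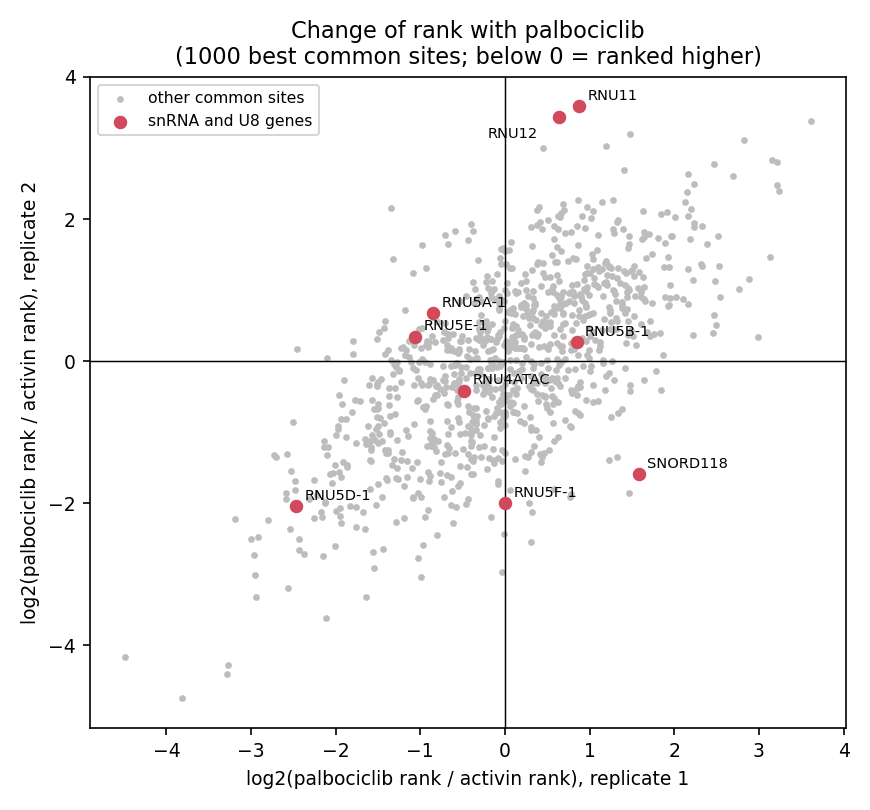
Change of rank from activin to palbociclib, as the log2 ratio of the common-site ranks, in the replicate 1 libraries (x axis) and the replicate 2 libraries (y axis), for the 1000 common sites with the best mean rank; red points are the 9 genes present in every library and values below 0 mean a higher rank with palbociclib. RNU5D-1 is low on both axes (-2.47 and -2.04), RNU11 and RNU12 are high on the y axis (3.58 and 3.43), and SNORD118 has opposite signs (1.58 and -1.58).

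The position of the summits was not used to rank the genes, beyond the limit of 1 kb. All 37 best summits lay within 400 bp of the gene position, the farthest at 395 bp, with a median distance of 126 bp. The position is read here as 1 end of the gene, and distances run along the chromosome because the strand is not in the sources used here. RefSeq gives these genes lengths of 102 to 150 bases. At 20 of the 37 summits the distance exceeded the length of the gene. Taken as exact, these summits lay outside the transcribed part whichever way the gene runs. Some exceeded it narrowly, as at RNU12 in palbociclib replicate 1 (151 bp against a length of 150). The range of the summit position between libraries had a median of 79 bp at the genes, so such cases are not resolved. Reads that match several gene copies make the positions uncertain too. The distance exceeded the gene length in all 4 libraries for RNU4ATAC (180 to 210 bp), RNU5B-1 (156 to 233 bp) and RNU5E-1 (249 to 395 bp).

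The other genes had summits closer in. The RNU5F-1 summits lay 66, 11, 35 and 28 bp below the position in the 2 activin and then the 2 palbociclib libraries, replicate 1 first. RNU5D-1 had them 47, 126, 47 and 116 bp above it, and RNU12 118, 107, 151 and 97 bp above it, in the same order of libraries. At each of these 3 genes the summits of all libraries lay on 1 side of the position.

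At 3 further genes the libraries placed the summit less evenly. The SNORD118 summits lay 188 and 88 bp below the position after activin and 229 and 94 bp below it after palbociclib. The RNU5A-1 summits lay 93 and 237 bp above it after activin and 21 and 231 bp above it after palbociclib. The RNU11 summits were 30 and 83 bp above the position after activin, and 259 bp above and 3 bp below it after palbociclib. RNU11 was the only one of the 9 genes with summits on both sides.

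**Figure D3:**
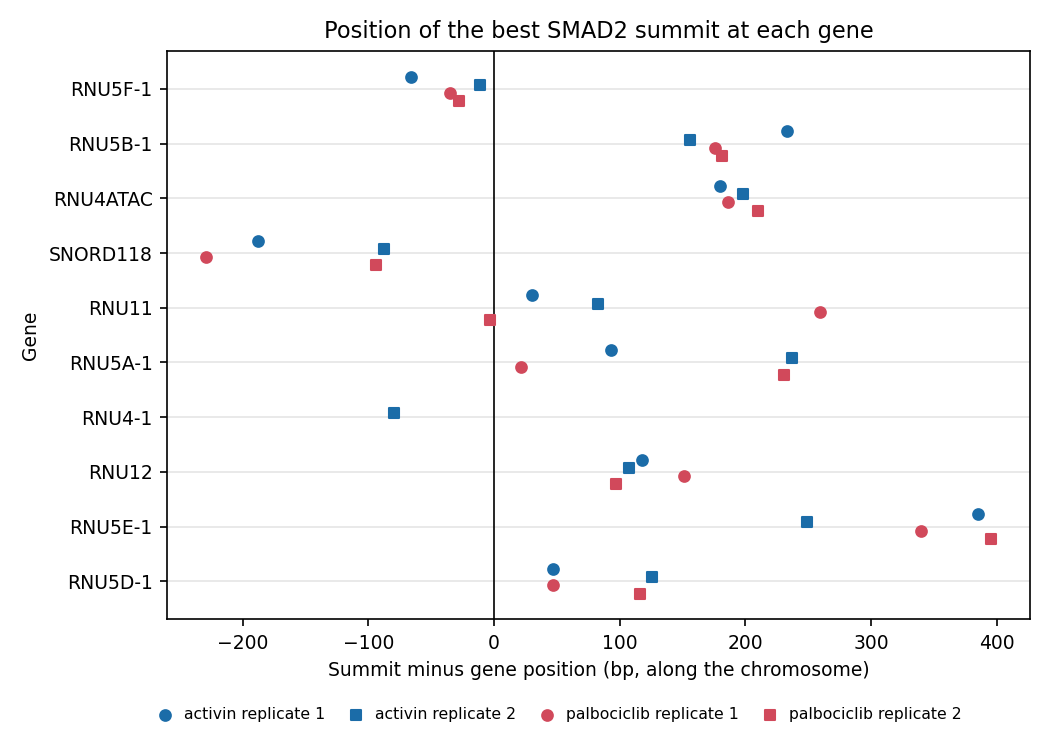
Position of the best summit of each library relative to the gene position, in base pairs along the chromosome (negative values are lower coordinates); blue and red mark activin and palbociclib libraries, circles replicate 1 and squares replicate 2. At RNU5A-1, RNU5D-1 and SNORD118 the circles and squares part by replicate number, and at RNU11 the points spread from -3 to 259 bp.

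Each of the 9 common sites held 1 summit per library, as did 99.7% of all common sites. The place of the summit varied more than at the median common site at 8 of the 9 genes, RNU4ATAC being the exception. The range of the summit position over the 4 libraries had a median of 79 bp at the 9 genes, from 30 bp at RNU4ATAC to 262 bp at RNU11. The median was 46 bp over all common sites and 35 bp over the 100 with the best mean rank. A range as wide as that of RNU11 was found at 2.64% of the common sites and at no other of the best 100. The range of 216 bp at RNU5A-1 was reached at 5.01% of the common sites, that of 146 bp at RNU5E-1 at 13.4% and that of 141 bp at SNORD118 at 14.3%. The other 5 genes were nearer the middle of the common sites, with shares of 28.7% for RNU5D-1, 29.4% for RNU5B-1, 42.5% for RNU5F-1, 43.5% for RNU12 and 72.3% for RNU4ATAC. No test was made of this difference in spread.

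**Figure D4:**
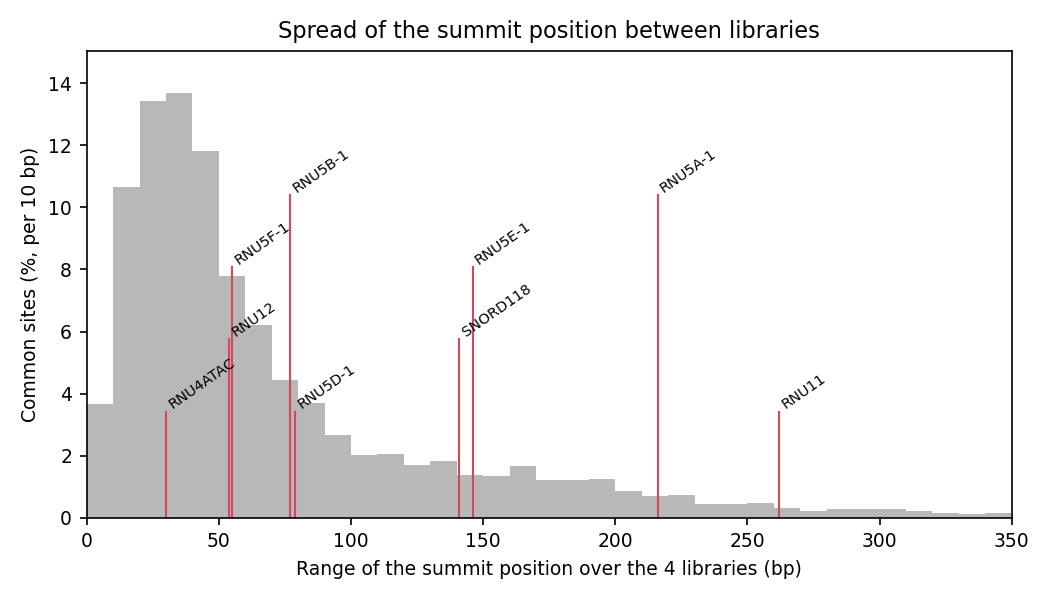
Range of the best-summit position over the 4 libraries (x axis, bp, shown up to 350) for all 5829 common sites, as the percent of sites per 10 bp (grey bars); red lines mark the 9 genes, and their heights only separate the labels. RNU11 (262 bp) and RNU5A-1 (216 bp) lie in the thin right part, while RNU4ATAC (30 bp) lies among most other sites.

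The summit positions parted by replicate number more often than by treatment. At 6 of the 9 genes (RNU4ATAC, RNU5A-1, RNU5D-1, RNU5F-1, RNU12 and SNORD118) the replicate 1 summits did not overlap those of replicate 2, against 34.6% of all common sites and 38% of the best 100. At 0 of the 9 genes did the palbociclib summits lie apart from the activin summits, against 33% of all common sites (16.2% at lower and 16.8% at higher coordinates) and 30% of the best 100. A site parted by replicate number cannot also be parted by treatment. The count by treatment is therefore not a separate observation from the count by replicate number. In 5 of the 6 cases replicate 1 lay at the lower coordinates; over all common sites 17.1% were parted in this direction and 17.5% in the other. The shift was wide at RNU5A-1, where the replicate 1 summits lay 93 and 21 bp above the position and those of replicate 2 lay 237 and 231 bp above it. What a replicate number shared (a day, a culture or a sequencing run) is not stated in the labels, so its part in these shifts was not tested.

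The nearest other summit lay farther away at the genes than over all summits, except in activin replicate 2. The nearest other summit of the same list was a median of 4072 bp away in activin replicate 1, 8685 bp in palbociclib replicate 1 and 8527 bp in palbociclib replicate 2; over all summits of these lists the medians were 1142, 1345 and 1946 bp. In the short list of activin replicate 2 the order turned, with 8649 bp at the genes and 31161 bp over all summits. Only all summits, weak ones included, served for comparison. The 100 best sites were not measured, so whether strong sites in general lie as far from others was not tested. For RNU5A-1, RNU5B-1 and RNU5F-1 the nearest other summit was in some lists that of the neighbouring member (8660 bp at RNU5A-1 in activin replicate 2). The medians at the genes thus partly give the distances within these pairs. The single further summit within the limit was a weak one 826 bp below RNU12 in activin replicate 2 (score 9.37, rank 3221). The first ones beyond the limit were 1037 bp below RNU5F-1 in activin replicate 1 (score 3.69) and 1093 bp below it in palbociclib replicate 2 (score 5.4).

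Beyond the gene pairs and the summit near RNU4-1, a neighbouring summit was found in all 4 libraries within 10 kb of RNU11, RNU5D-1 and SNORD118. A summit lay 5529 to 5571 bp below RNU11 in all 4 libraries, with ranks of 439 and 117 after activin and 79 and 127 after palbociclib. RNU11 neighbours TAF12, which encodes a subunit of the general transcription factor TFIID, and overlaps the non-coding TAF12-DT in the RefSeq table. A summit 8643 to 8764 bp above RNU5D-1 ranked 2159 and 2220 after activin and 1468 and 998 after palbociclib. A summit 2874 to 2935 bp above SNORD118 ranked 3970 and 4928 after activin and 4941 and 6020 after palbociclib. The ranks of these neighbouring summits are within whole lists of different length, so the treatments were not compared on them. In each library these summits ranked below the one at the gene itself.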

How the data were processed

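SMAD2 ChIP-seq peak summits of 4 libraries were analysed; the 2 inputs were used by the peak caller and not analysed separately here. The submitters' processing notes name the aligner Bowtie 1.1.0, the toolkit Picard, the peak caller MACS2 2.0.9 and build hg19, and per the labels each treatment had its own input; the sources used here give no settings. Each library has its own deposited list of 1-base summits with the authors' score per peak, read as −log10 of a p- or q-value because the lowest scores lie just above 1.3, which is −log10 of 0.05; which of the 2 it is was not stated.

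Scores were ranked within each list (ties took the lowest rank). Summits of all lists within 250 bp of the next formed a site; a site's score in a library was its best summit's, and common sites, found in all 4 libraries, were ranked again with tied ranks averaged. A gene was represented by its best-scored summit within 1 kb of the hg19 position given for it. The distance between the positions of RNU5A-1 and RNU5B-1 differs by 1 bp from the closest end-to-end distance in the RefSeq table (GRCh38.p14). For RNU5F-1 and RNU5D-1 the difference is 2 bp. The closest distance between gene ends was picked for each pair, and the other members had no such check. All 10 names matched in the RefSeq table. That table served for names, gene lengths and neighbours only; no coordinates were converted. The members, lists and comparisons were chosen with earlier results of these data known. The summit range, the order of positions by replicate number, the distance to the next summit and the 100 best sites were added after the data were seen. All 10 members are named, and of other features those within 10 kb and the leading common sites. No statistical test was made. Promoter sequences of the members (0 of 10 matched), motifs and the peaks of other small nuclear RNA genes were not analysed here. The functions were tested on simulated lists. Python 3.11.15, numpy 2.4.6, pandas 2.3.3 and matplotlib 3.10.9 were used.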

Additional observations from a re-analysis of the deposited data

How the results depend on the processing

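The number of genes with a summit in all 4 libraries was 9, and 9 or 10 under each alternative tried: 500 bp or 2 kb from the gene, scores of at least 5 or 20, lists of equal length, and each library left out. It was 10 at 2 kb, where the summit beyond RNU4-1 counts, and the median rank in palbociclib replicate 2 then went from 8 to 10. With summits joined within 100 bp, the sites of RNU11 and RNU5A-1 broke up. Of the 7 genes left, 1 ranked higher and 1 lower with palbociclib, instead of 2 and 2. RNU4ATAC and RNU5D-1, the 2 that ranked higher before, were among these 7. RNU4ATAC had ranked higher by few places (5 and 6 against 7 and 8). RNU11 (6 and 1) had stood ahead of it after activin, so its activin ranks depended on that site. RNU11 had been 1 of the 2 that ranked lower. The share of all common sites at this joining distance was not computed. With each library left out in turn, 2 to 4 of the 9 genes ranked higher and 2 to 4 lower, against 34.6% to 39.7% and 37.6% to 43.9% of the sites common to the other 3 libraries. The median distance of summits from the genes was 117 to 151 bp with a library left out, against 126 bp. With a replicate block, that is, the same direction in both same-numbered pairs, 2 genes ranked higher and 3 lower, against 33.1% and 36.4% of the common sites; the deviations of same-numbered libraries correlated at r = 0.26 over the 5829 common sites, and 2 pairs do not show whether the numbers pair the samples. The motif search was not run. Read depth is unknown, so a summit missing from the short list of activin replicate 2 does not show an absence of signal.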
